A study of Mus musculus with 2 samples.

Results

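The 33 genes described here carry out or control the synthesis of fatty acids and triglycerides in the liver. They were chosen by symbol, as lipogenic enzymes, desaturases, elongases, glycerolipid acyltransferases and the transcription factors SREBP1 (Srebf1) and ChREBP (Mlxipl) with its partner Mlx. All 33 had at least 1 probe set with a single annotated symbol, 74 probe sets of the 34958 with 1 symbol, and they are 33 of 18194 genes. Each gene is given by its brightest probe set, and the filter on dim genes was a mean signal of 28.4 over both arrays, the 60th percentile of probe sets. It was reached by 32 of the genes and missed by Pnpla3.

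The livers came from ICR mice, an outbred stock, that were 13 weeks old. The control mice ate the basal diet CRF-1, and the diosgenin mice ate CRF-1 to which 500 ppm of diosgenin had been added. Diosgenin is a steroidal sapogenin from plants such as yam. Feeding began at 9 weeks of age and lasted 4 weeks. Each diet is 1 Affymetrix array of RNA pooled from 3 mice, so there is no replicate array, no test and no error from mice, and each difference is between 2 pools. With 3 mice to a cage, it is not said in the labels if a diet was 1 cage. Both arrays had a 2% trimmed mean signal of 96.9, and the share of probe sets at or above 10.7, the floor to which lower signals were raised, was 59.9% and 60.1% on the control and diosgenin arrays. The livers read as hepatocyte tissue on both arrays, with albumin (Alb) at 9517 and 8429. Whether a lower signal means fewer cells of a type or less RNA per cell cannot be told apart in whole liver.

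De novo lipogenesis turns surplus carbohydrate into fat. Citrate leaves the mitochondrion and is split to acetyl-CoA, which acetyl-CoA carboxylase and fatty acid synthase build into palmitate; elongases and desaturases then lengthen and unsaturate the chain, and acyltransferases join it to glycerol. In liver the genes are switched on by insulin through SREBP1 and by glucose through ChREBP, and they follow feeding and the time of day.

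As a group these genes differed little between the arrays, without a common direction. On the diosgenin array 12 of the 32 were higher and 20 lower, against 49% higher and 51% lower among the 9732 genes above the filter. Their log2 ratios of diosgenin over control had a median of −0.07, with quartiles of −0.20 and 0.13, and that of all genes was −0.01, with quartiles of −0.16 and 0.15. Higher by 1.2-fold or more were 4 genes, Fads2, Pnpla5, Lpin1 and Acss2, or 12.5% of the members, beside 14.5% of all genes. Lower by 1.2-fold or more were 6 genes, Aacs, Thrsp, Mlx, Scd2, Pklr and Fasn, or 18.8%, beside 15.3% of all genes. Both shares lie near those of all genes above the filter, a background not matched for signal. By brightest probe sets no member reached 1.5-fold, a size at which 2.84% of all genes were higher and 3.61% were lower. None reached 2-fold either, as 0.555% of all genes did upward and 0.853% downward.

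**Figure D1:**
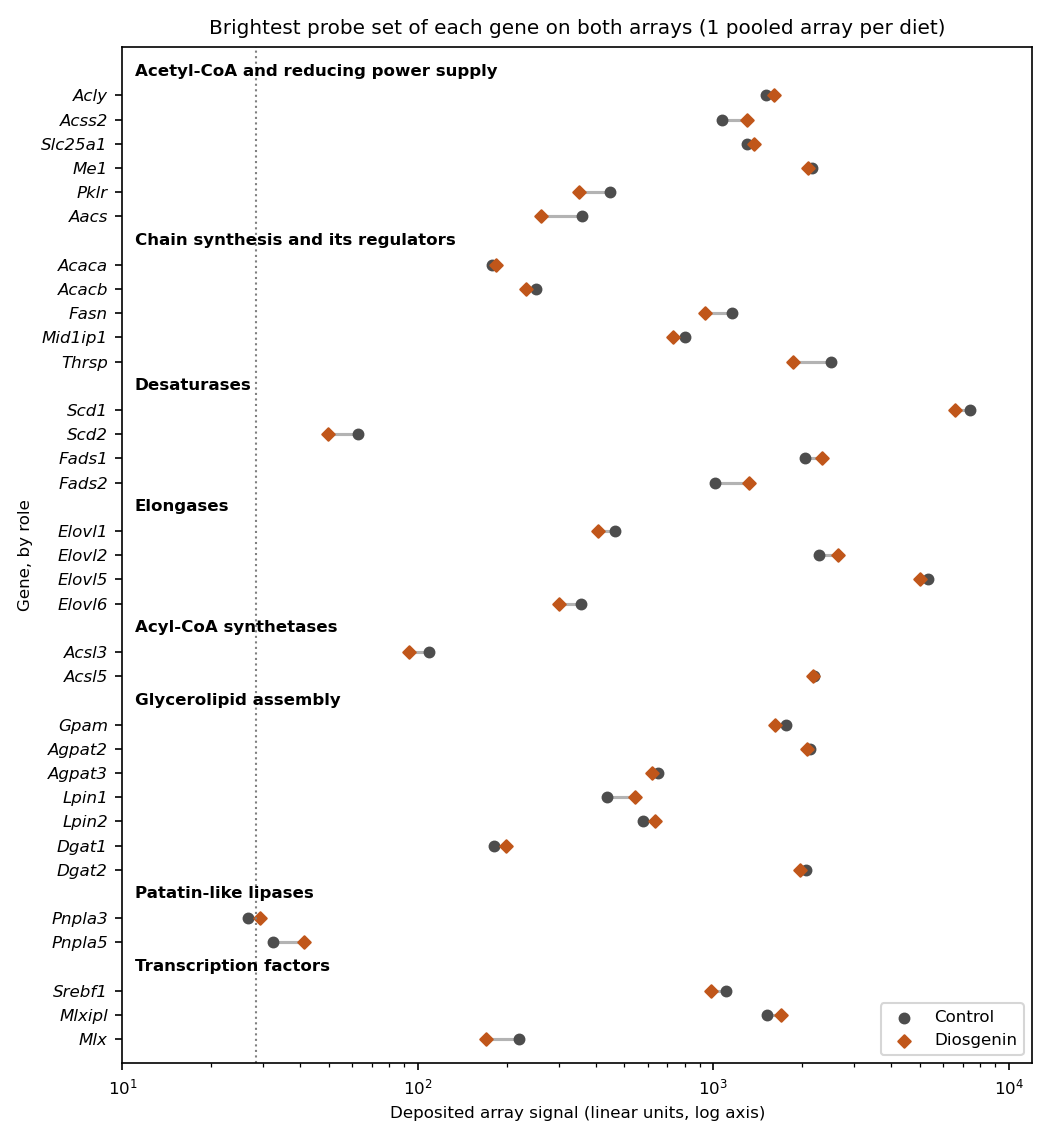
Deposited signal (log axis, linear units) of the brightest probe set of each of the 33 genes on the control array (grey circle) and the diosgenin array (orange diamond), by role. The dotted line is the filter of 28.4, and only Pnpla3 has a mean signal below it; distances along a row are ratios, and signals of different genes are not comparable.

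Enzymes that supply acetyl-CoA and reducing power were split, with 3 on each side of 0 and a median log2 ratio of 0.02. ATP citrate lyase, Acly, which makes acetyl-CoA from citrate, had 1507 on the control and 1599.8 on the diosgenin array by its brightest probe set, a log2 ratio of 0.09. Its 3 other probe sets above the filter had log2 ratios of 0.14, 0.11 and −0.89, the last from a dim one. The mitochondrial citrate carrier Slc25a1 had 1306 and 1378, a log2 ratio of 0.08. By their brightest probe sets both citrate genes were within 1.1-fold. Acss2, which makes acetyl-CoA from acetate, had 1069.7 and 1304 by its brightest probe set and 976 and 1146 by the other one above the filter. Both Acss2 probe sets were higher, with log2 ratios of 0.29 and 0.23. Malic enzyme Me1, a source of NADPH, had 2164 and 2093 by one probe set and 728 and 817 by the other. The Me1 log2 ratios of −0.05 and 0.17 have opposite signs.

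Pklr encodes the liver and red cell pyruvate kinase, the last step of glycolysis, and was lower by each of its 3 probe sets. Its signals on the control and diosgenin arrays were 446 and 352, 385 and 309, and 236 and 189.6. The 3 log2 ratios of −0.34, −0.32 and −0.32 lie close together, and no Pklr probe set was as high on the diosgenin array as on the control array. Aacs, a cytosolic enzyme that turns acetoacetate into acetoacetyl-CoA for lipid synthesis, had the lowest ratio of the members by brightest probe sets, at 360.3 against 261. A second Aacs probe set had 291 and 231. Their log2 ratios were −0.47 and −0.33, so both read Aacs as lower. Another Aacs probe set was under the filter, at 22.1 and 8.49, and its diosgenin signal was under the floor.

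Promoter windows of 300 bases, from 250 before to 50 after a RefSeq transcription start on the mouse assembly GRCm38.p6, were held for 28 of the 33 genes, 38 windows in all. The letters of 4 motifs were searched on both strands in these and in all 32851 windows of that length. The sequences of Pklr, at the downstream of its 2 starts (chr3:89136373-89136672, plus strand), and of Acss2 (chr2:155517793-155518092, plus strand) are shown because they belong to supply genes that were lower and higher. The window of Aacs, the supply gene with the lowest ratio by brightest probe set, and the other Pklr window are not shown. Both held none of the 4 motifs. Capitals mark motif letters.
Pklr: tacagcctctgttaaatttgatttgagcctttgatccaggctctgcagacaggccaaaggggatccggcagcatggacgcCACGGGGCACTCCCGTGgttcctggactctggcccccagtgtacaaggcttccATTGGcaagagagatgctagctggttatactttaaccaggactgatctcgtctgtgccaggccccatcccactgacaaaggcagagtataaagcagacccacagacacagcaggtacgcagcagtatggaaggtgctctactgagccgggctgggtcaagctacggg
Acss2: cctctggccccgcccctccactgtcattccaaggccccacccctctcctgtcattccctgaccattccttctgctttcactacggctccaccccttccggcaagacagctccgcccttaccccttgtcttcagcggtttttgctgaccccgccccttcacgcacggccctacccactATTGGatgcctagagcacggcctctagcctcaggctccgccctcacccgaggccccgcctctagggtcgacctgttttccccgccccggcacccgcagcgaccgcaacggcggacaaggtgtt

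In the Pklr window the first run of capitals begins 170 bases before the start and has the form of the carbohydrate response element bound by ChREBP with Mlx, CACG and CGTG held apart by 9 bases of any kind. This form was found in 1 of the 38 member windows, that of Pklr, and in 0.28% of all windows. The other Pklr run begins 117 bases before the start and is a CCAAT box, the site of the factor NF-Y, read on the other strand as ATTGG. Acss2 has such a box 73 bases before its start. CCAAT was found in 20 of 38 member windows, 52.6%, and in 37.4% of all windows. The E-box CACGTG, which each end of the carbohydrate response element resembles, was found in 6 member windows, 15.8%, and in 7.15% of all. The sterol regulatory element, spelled TCACNCCAC, was found in 1, a window of Mlxipl, and in 1.24% of all. None of these shares was tested, and a match is only a match of letters.

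Fatty acid chain synthesis and its regulators were lower for 4 of 5 genes, and the median of their log2 ratios was −0.13. Fasn, fatty acid synthase, had 1154 with the control diet and 937 with diosgenin. Its single probe set gave a log2 ratio of −0.30, 1.23-fold lower. Thrsp, also called Spot 14, a small protein that supports lipogenesis and answers to thyroid hormone and carbohydrate, had 2496 and 1865 by its brightest probe set and 951 and 772 by the other one above the filter. The Thrsp log2 ratios of −0.42 and −0.30 were both negative. One more Thrsp probe set, under the filter, went the other way at 6.12 and 23.7, with the control signal under the floor.

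The carboxylases that make malonyl-CoA differed less between the arrays than Fasn and Thrsp did. Acaca, the cytosolic form that feeds synthesis, had 178 and 183, a log2 ratio of 0.04. Acacb, the form at mitochondria whose product restrains fatty acid oxidation, had 252 and 232, a log2 ratio of −0.12. Mid1ip1, a paralog of Thrsp that helps acetyl-CoA carboxylase to polymerise, had 802 and 732, a log2 ratio of −0.13. The other probe sets of Acaca and Acacb were under the filter.

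The windows of Fasn (chr11:120824498-120824797, minus strand) and Thrsp (chr7:97417501-97417800, minus strand) are shown because both genes were lower by more than 1.2-fold.
Fasn: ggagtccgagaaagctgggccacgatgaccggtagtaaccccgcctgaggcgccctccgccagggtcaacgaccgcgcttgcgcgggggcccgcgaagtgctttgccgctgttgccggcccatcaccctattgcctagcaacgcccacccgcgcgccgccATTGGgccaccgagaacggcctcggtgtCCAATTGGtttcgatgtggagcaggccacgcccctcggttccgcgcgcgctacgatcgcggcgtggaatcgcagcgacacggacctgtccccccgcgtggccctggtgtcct
Thrsp: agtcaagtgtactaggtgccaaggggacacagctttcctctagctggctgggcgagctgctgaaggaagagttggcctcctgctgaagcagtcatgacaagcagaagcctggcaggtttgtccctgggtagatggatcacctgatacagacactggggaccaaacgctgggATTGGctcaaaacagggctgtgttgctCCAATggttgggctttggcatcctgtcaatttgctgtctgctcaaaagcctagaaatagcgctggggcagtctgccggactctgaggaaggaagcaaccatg

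The capitals are CCAAT boxes, at 90, 62 and 59 bases before the Fasn start, where the last 2 overlap head to head, and at 79 and 52 bases before the Thrsp start. No match of the 3 other motifs was in either window, which says only that those letters are not in these 300 bases.

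Among desaturases, read by their brightest probe sets, the enzymes of the Δ9 type were lower and those of the Δ5 and Δ6 type higher. Scd1, the main liver stearoyl-CoA desaturase, which makes oleate, had 7422 and 6587 by its brightest probe set and 1261 and 921 by the other. The Scd1 log2 ratios were −0.17 and −0.45, alike in sign and unlike in size. Scd2, the form better known from brain and developing liver, had 62.8 and 49.5, a log2 ratio of −0.35. It was dim, and its 2 probe sets under the filter had 17.1 and 26.5, and 13.3 and 13.7, both higher on the diosgenin array. A direction for Scd2 therefore rests on 1 probe set.

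Fads2, the Δ6 desaturase that opens the synthesis of polyunsaturated fatty acids, had the highest ratio of the members by brightest probe sets. By the median of the probe sets above the filter it was at 0.21, below Fads1 at 0.38, Pnpla5 at 0.34, Lpin1 at 0.31 and Acss2 at 0.26. Its 3 probe sets had 1017 and 1318, 918 and 1061, and 132 and 136. All 3 were higher on the diosgenin array, with log2 ratios of 0.37, 0.21 and 0.05. Fads1, the Δ5 desaturase that acts after it, had 2039.9 and 2343 by one probe set and 44.2 and 65.2 by a dim one. Both were higher, at 0.20 and 0.56 on the log2 scale. The Fads2 window (chr19:10101454-10101753, minus strand) is shown as that of the member with the highest ratio by brightest probe set, and it held none of the 4 motifs, so it has no capitals.
Fads2: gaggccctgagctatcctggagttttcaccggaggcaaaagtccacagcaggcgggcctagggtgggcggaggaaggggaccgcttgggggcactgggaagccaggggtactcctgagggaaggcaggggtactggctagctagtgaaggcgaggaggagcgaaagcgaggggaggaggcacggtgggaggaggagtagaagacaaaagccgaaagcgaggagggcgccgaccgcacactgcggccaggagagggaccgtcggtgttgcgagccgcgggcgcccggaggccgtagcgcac

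Of the 4 elongases 3 were lower and 1 higher, and their log2 ratios had a median of −0.14. Elovl6, which extends palmitate to stearate, had 358 and 301 by its brightest probe set and 197 and 162 by another. The Elovl6 log2 ratios of −0.25 and −0.28 lie on both sides of the 1.2-fold line, which is 0.26 in size. Elovl1, which makes very long saturated chains, had 466 and 408, 471 and 386, and 386 and 313. Its 3 log2 ratios of −0.19, −0.29 and −0.30 were all negative, and all come from probe sets that Affymetrix marks as able to bind more than 1 transcript. Elovl2, which extends polyunsaturated chains, had 2282 and 2642 by its single probe set, a log2 ratio of 0.21. Elovl5 had 5328 and 5000.1, and 3726 and 3390.3. Its log2 ratios of −0.09 and −0.14 were small and alike.

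**Figure D2:**
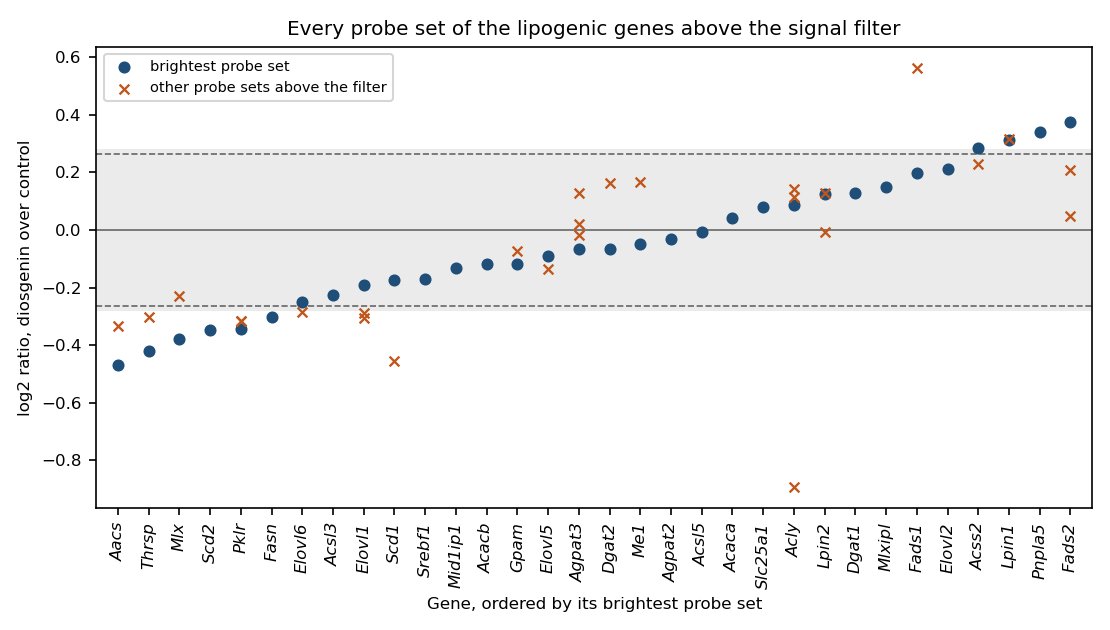
Log2 ratio of diosgenin over control for each of the 58 probe sets above the filter, with genes ordered by their brightest probe set (blue circles; orange crosses are the other probe sets). The grey band reaches to either side of 0 by the standard deviation, 0.28, of probe sets within a gene over all genes and the dashed lines are 1.2-fold; from Aacs to Elovl5 all crosses lie below 0, and 1 cross of Acly lies at −0.89.

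Acyl-CoA synthetases, which activate fatty acids for use, were level or slightly lower. Acsl5 had 2192 and 2180.2, a log2 ratio of −0.01. Acsl3, an enzyme of lipid droplet growth, had 109 and 93.3, a log2 ratio of −0.23 from a probe set shared between transcripts.

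The 7 genes of glycerolipid assembly were spread over both directions, 3 of them higher, around a median of −0.03 on the log2 scale. Gpam, which puts the first acyl chain on glycerol phosphate, had 1761 and 1624, and 346 and 329. Both Gpam probe sets were slightly lower, at −0.12 and −0.07. The next acyltransferases were closer still, with Agpat2 at 2123 and 2075, a log2 ratio of −0.03. Agpat3 was read by 4 probe sets whose log2 ratios ran from −0.07 to 0.13, 2 below 0 and 2 above.

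Lipins remove the phosphate before the last acyl chain is added. Lpin1, which also acts as a coactivator in the fasted liver, had 438 and 543 by one probe set and 302 and 376 by the other. Its log2 ratios of 0.31 and 0.32 nearly coincide, so Lpin1 was 1.24-fold higher by either. Lpin2 had 580.1 and 633, 226 and 247, and 184 and 183. Its log2 ratios were 0.13, 0.13 and −0.01, and its other probe set was under the filter.

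The final step, from diacylglycerol to triglyceride, is shared by 2 unrelated enzymes. Dgat1 had 181 and 198, a log2 ratio of 0.13 from a shared probe set. Dgat2, the main liver enzyme for newly made fat, had 2066 and 1973, and 793 and 887. The Dgat2 log2 ratios of −0.07 and 0.16 disagree in sign, so no direction can be given.

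Pnpla3 and Pnpla5 encode patatin-like lipases that sit beside each other on chromosome 15, and both were dim. Pnpla3, the lipid droplet protein known from fatty liver and a target of SREBP1, had 26.6 and 29.1, below the filter of 28.4 by its mean of 27.9. Pnpla5 had 32.4 and 41.0, a log2 ratio of 0.34. At such signals sizes like this are common: the central 95% of log2 ratios ran from −0.95 to 0.83 among the 2433 dimmest genes above the filter, which include Pnpla5 and Scd2.

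The transcription factors were within 1.3-fold of each other on the 2 arrays. Srebf1, the insulin-driven activator, had 1102 and 979, a log2 ratio of −0.17. Mlxipl, the glucose-sensing ChREBP, had 1526 and 1694, a log2 ratio of 0.15. Both were read by a probe set of the kind that Affymetrix marks as binding several transcripts of a gene. Mlx, which pairs with ChREBP on DNA, had 220.2 and 169, and 129.8 and 111. Its log2 ratios of −0.38 and −0.23 were both negative, the partner thus lower where Mlxipl was higher.

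The nearest to a repeat measurement that these arrays offer is a second probe set. It reads the same pooled RNA on the same array, so it does not repeat the comparison of diets. Of the 32 members above the filter 18 had several, and in 13 of the 18 every probe set had the sign of the brightest. The others were Acly, Agpat3, Dgat2, Lpin2 and Me1. The same share was not computed for the 4079 genes with several probe sets above the filter. The 13 of 18 therefore has no background beside it. A further 16 probe sets of the 33 genes were under the filter, and in 4 of these both signals were under the floor. A probe set annotated to Acss2 and a second gene was left out by the rule for symbols, at 0.303 and 0.164. Acly had 3 probe sets near 0.1 and a dim one, at 47.1 and 25.4, with a log2 ratio of −0.89. Within a gene, log2 ratios of probe sets had a standard deviation of 0.20 for the members and 0.28 for all genes. In size, 22 members were under 0.28 and 10 were at or over it, and those 10 are the same genes as the ones at least 1.2-fold apart. A standard deviation of this kind contains no spread between mice.

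Against genes of like signal, no member stood outside the bulk. All genes were split by mean signal into 4 classes of 2433. Of the 32 members 23 were in the brightest class, where the central 95% of log2 ratios ran from −0.47 to 0.44. Within that class 3 of 23 members, 13%, were at least 1.2-fold higher, Fads2, Lpin1 and Acss2, beside 7.69% of all its genes. Another 3, also 13%, were at least 1.2-fold lower, Thrsp, Pklr and Fasn, beside 7.93%. Both shares are above those of the class, rest on 3 genes each and were not tested. In each of the 4 classes, 0 members lay outside the central 95%.

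**Figure D3:**
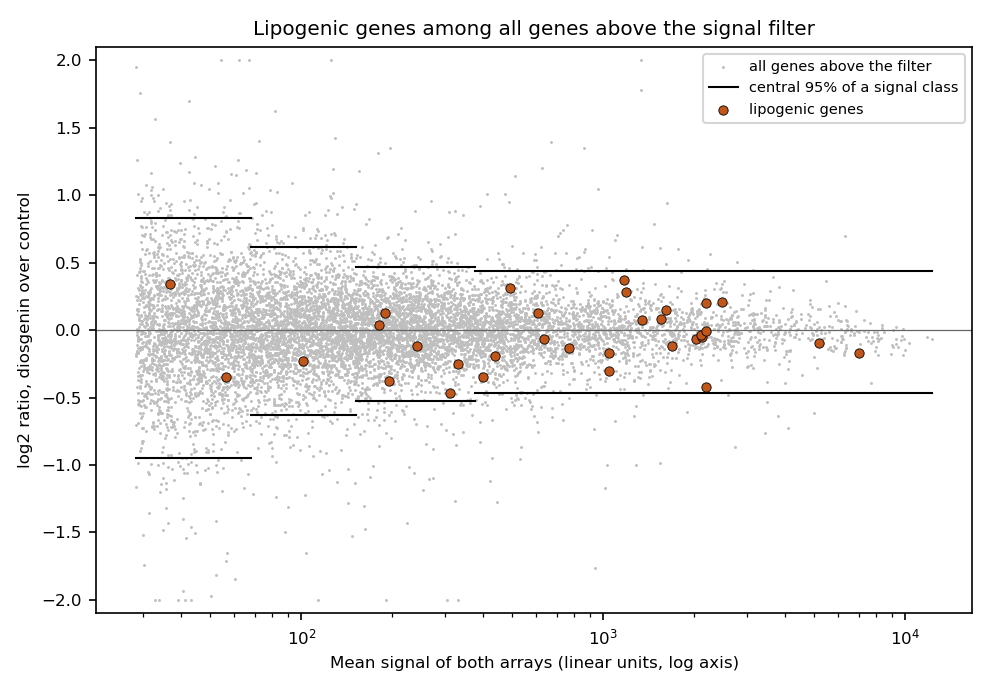
Log2 ratio of diosgenin over control against the mean signal of both arrays (log axis, linear units) for 9732 genes (grey; ratios beyond 2 in size are drawn at the edge) and the 32 lipogenic genes (orange). Black lines bound the central 95% of each of the 4 signal classes, and all orange points lie inside them.

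Genes next to the pathway were read from 7 further lists, which are counted against the same background. Supply of NADPH and carbon was flat: 9 of 15 listed genes were above the filter, 7 of them higher, the median log2 ratio was 0.02, and 0 were 1.2-fold apart. Its largest sizes were those of transketolase Tkt at −0.08, isocitrate dehydrogenase Idh1 at 0.06, Taldo1 at 0.04 and the pyruvate carrier subunit Mpc1 at 0.04. The elongation cycle and other elongases and desaturases had 2 higher and 5 lower of 7 above the filter, with a median of −0.08. Elovl3, an elongase with strong daily and sex-dependent expression in liver, had 5092 and 3085, a log2 ratio of −0.72. By brightest probe sets this is larger in size than any ratio among the members. Next came Hacd1 at −0.18, Hsd17b12 at −0.09 and Hacd2 at 0.08.

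Fatty acid activation, uptake and binding had 4 higher and 10 lower of 14, with a median of −0.05. The thioesterase Acot13 had 218 and 400.3, a log2 ratio of 0.88, and the transporter Slc27a1, which was dim, one of 0.34. The binding protein Fabp5 had 1104 and 898, a log2 ratio of −0.30, and the uptake receptor Cd36 had 90.8 and 76.7, one of −0.24. Other glycerolipid enzymes had 5 higher and 10 lower of 15, with a median of −0.05; past 1.2-fold were 1 gene upward and 3 downward. Gpd1, which makes the glycerol phosphate backbone, had 1247 and 972, a log2 ratio of −0.36. Plpp1 and Gpat3 were lower too, at −0.34 and −0.28. Pnpla2, the adipose triglyceride lipase that breaks triglyceride down, had 272 and 353, a log2 ratio of 0.38.

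Control genes of lipogenesis were evenly spread, 12 higher and 13 lower of 25, with a median of −5.22e-05. Insig1 and Insig2, which hold SREBPs in the endoplasmic reticulum, had log2 ratios of −0.12 and −0.27, and Scap, their escort, one of 0.10. Insig2 had 3266 and 2701. The liver X receptor gene Nr1h3, an activator of Srebf1, had 333 and 339, a log2 ratio of 0.03. Txnip, a ChREBP target, had 209.7 and 177, a log2 ratio of −0.24. The largest sizes were those of the kinase Sik1 at −0.49, Prkaa2 at −0.38, the bile acid responsive repressor Nr0b2 at −0.36 and Usf1 at 0.34, where the median of the Prkaa2 probe sets was 0.06.

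**Figure D4:**
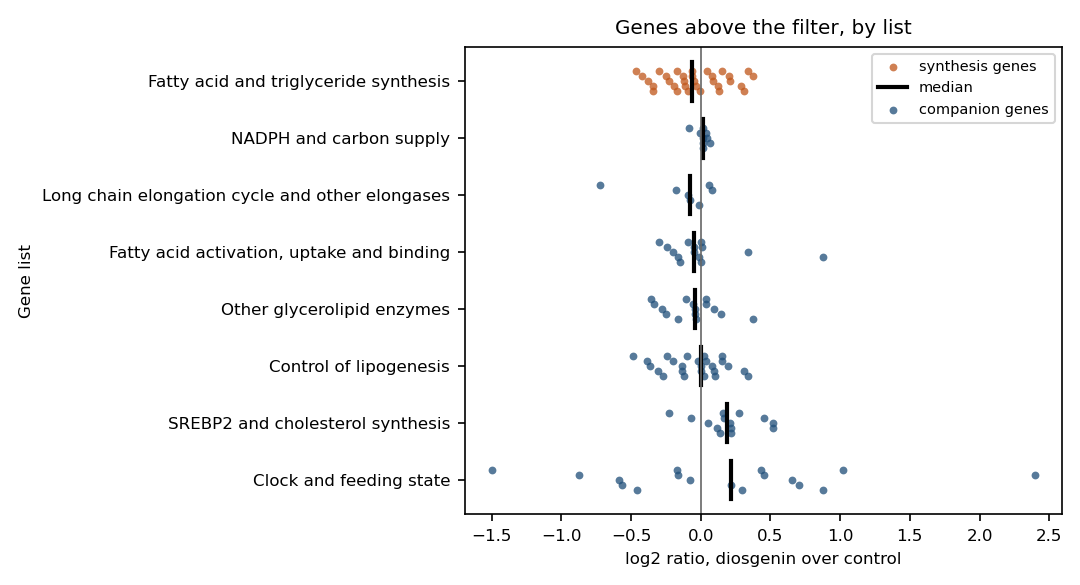
Log2 ratio of diosgenin over control for each gene above the filter, for the fatty acid and triglyceride synthesis genes (orange) and 7 companion lists (blue), with the median of each list as a black bar. The bars of the first 6 rows lie between −0.08 and 0.02, and those of cholesterol synthesis and of clock and feeding genes lie at 0.19 and 0.22.

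Cholesterol synthesis, driven by the related factor SREBP2, had 12 of 14 genes higher and a median of 0.19, with Sc5d and Cyp51 at 0.52 each, Idi1 at 0.45 and Dhcr7 at 0.28. The difference between this list and the members was not tested. Genes of the clock and of feeding had the widest range, 9 higher and 8 lower of 17, with Dbp at 2.40, Pdk4 at −1.50, Per1 at 1.02 and Ppargc1a at 0.88. Of the other clock genes above the filter, Nr1d1 at 0.70, Tef at 0.65 and Nr1d2 at 0.43 were higher. Cry1 at −0.87, Arntl at −0.58, Clock at −0.17 and Per2 at −0.17 were lower. A pair of genes of this list were picked out after their values were seen because insulin acts on them in opposite ways: Angptl8, induced by feeding, had 307 and 224, and Igfbp1, induced by fasting, had 690.1 and 467. Both were lower on the diosgenin array. The list's other feeding genes above the filter, besides Pdk4 and Ppargc1a, went both ways. Angptl4 at 0.45, Pck1 at 0.30 and Cpt1a at 0.22 were higher, and G6pc at −0.08 was lower. The hour of collection and the time since the last meal are not in the labels used here, and the part of either in the members' values was not tested.

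Markers of other cells were read beside these values. Of the adipocyte markers 5 of 7 were annotated. Adipoq and Lep were under the floor on both arrays, and Retn, at 18.3 and 16.4, was under the filter. Fabp4 was above the filter at 149 and 130, a log2 ratio of −0.20. Car3, which liver also expresses, had a log2 ratio of 0.01 by its brightest probe set. The median of its 4 probe sets above the filter was 0.42. The summed signal of the adipocyte markers, nearly all from Car3, was 9953 and 9998. Endothelial markers were lower in 5 of 6 cases, with summed signals of 1428 and 1047, and stellate markers were higher in all 5 cases above the filter, with 2210.4 and 2726. The remaining stellate marker, Col1a1, was under the filter and went the other way, at 31.3 and 17.2. Macrophage markers were higher in 5 of 6 cases, with summed signals of 1486 and 1683. Of the biliary markers 4 of 5 were annotated, with summed signals of 106 and 58.1; Sox9, the 1 above the filter, had a log2 ratio of −0.69, Krt19 was at 25.6 and 13.2, Epcam at 28.4 and 10.2, and Krt7 was under the floor on both arrays. Lymphocyte markers had summed signals of 69.5 and 102, and only Cd8a of the 5 was above the filter, at −0.01 on the log2 scale. Hepatocyte markers, 3 higher and 3 lower of 6, had a median of −0.02 and summed signals of 43497 and 41749. The part of these cells in the values of the lipogenic genes was not tested.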

How the data were processed

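The authors deposited 1 array intensity per probe set on a linear scale for each of 2 arrays. Per the submitters' processing notes they used GCOS, while its version, summary method and scaling target were not given in the sources used here. Signals were used as deposited. Before log2 was taken, those under 10.7 (percentile 40 over the 2 arrays) were raised to that floor. Each gene was read by its brightest probe set with 1 annotated symbol and kept where its mean signal reached 28.4, the 60th percentile of probe sets, which left 9732 genes. No p-value was computed, since each diet is 1 pooled array, and the number of arrays limits the precision. Members, lists and the 1.2-fold line were chosen with earlier results of these data known. Every member is named, with up to 4 genes per companion list by size plus a few fixed control genes where measured. Further clock and feeding genes are named outside this rule, after their values were seen. The calculation was tested on simulated data, in Python 3.11.15 with pandas 2.3.3 and numpy 2.4.6. Symbols came from the platform annotation and promoters from RefSeq, GRCm38.p6. The search for motifs was exact. The 9 alternatives tried are in the closing section.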

Additional observations from a re-analysis of the deposited data

How the results depend on the processing

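The median of the members, their counts higher and lower and their counts at least 1.2-fold apart stayed within the spread allowed under all 9 alternatives: counts within 1.5 times, and medians within the probe set standard deviation of 0.28 divided by the square root of the number of genes. The median ran from −0.08 with quantile normalization to −0.02 with the median of the probe sets of a gene or without shared and alternative probe sets. Those last 2 settings gave 17 lower and 15 higher of 32, and 14 lower and 12 higher of 26. With the median of probe sets 9 of 32 genes were at least 1.2-fold lower, Elovl1, Elovl6 and Scd1 besides the 6 named, beside 14.9% of all genes. That count is at the limit of 1.5 times the 6 of the main setting, so the share of lower genes depends on how probe sets are combined. At least 1.2-fold higher were 3 genes, Fads1, Lpin1 and Pnpla5, beside 13.8% of all genes. The 10 genes at least 1.2-fold apart kept their sign under each setting that gave them a value, and 29 of 32 members did; the exceptions were Agpat3, Dgat2 and Me1. Acsl3, Dgat1, Elovl1, Mlx, Mlxipl and Srebf1 had no value without shared and alternative probe sets, and Scd2 and Pnpla5 had none with the filter at the 75th percentile. Other floors could change none of these values, since no brightest member probe set was under either floor except Pnpla3 at the higher one. Leaving out shared and alternative probe sets turned the median of the elongation list to 0.05, and dropping the filter put that of clock and feeding genes at 0.30. No paired analysis was possible because each diet has 1 array. Leaving out an array leaves no ratio.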
